A study of Mus musculus with 9 samples.

Results

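BcA86 is a recombinant congenic strain whose genome is mostly that of C57BL/6J with segments of the A/J strain, and its lung was compared here, gene by gene, with that of C57BL/6J, the background strain. The comparison takes the 3 arrays labelled BcA86 and the 3 labelled C57BL/6J out of 9 in the series and describes every probeset that carries 1 gene symbol, 23521 of 41345 probesets, standing for 22180 genes. The other 3 arrays are of CSS12, which carries the A/J Chromosome 12 on C57BL/6J, and they are used for the shared estimate of spread and for values set beside those of BcA86. The study mapped airway hyperresponsiveness to a region of Chromosome 12 in a cross of BcA86 with C57BL/6J, and used these arrays as 1 way to choose candidate genes. For that it compared BcA86 and CSS12, in which the airways respond strongly to methacholine, with C57BL/6J, in which they respond weakly. All mice were naive and untreated and were kept under 1 light cycle in a pathogen-free facility. Each array holds the lung RNA of 1 mouse. The paper's abstract names whole lungs, while its methods give a set mass of lung tissue for each extraction. Which part of the lung that tissue came from is not given. The sources used here give the age of the animals as 1 range for all of them, and give neither the sex nor the hour of collection for the mouse behind each array. BcA86 is a single inbred line, so a change cannot be assigned to 1 A/J segment from this comparison.

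A recombinant congenic strain is made by a few backcrosses to a background strain and then inbreeding, which fixes a small set of donor segments in every animal. Genes inside a donor segment can differ through sequence near the gene itself, while genes elsewhere can differ through a regulator, through cell composition or through the state of the animal. Array probes bind less well where the sample's sequence differs from the one they were designed on, and whether A/J variants lie under the probes of the genes named here was not tested.

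Values are log2 expression values after robust multiarray averaging (RMA), so a difference of 1 is a doubling of signal, and a positive difference means higher in BcA86. They ran between 1.29 and 13.68, the array medians lay between 6.08 and 6.13, and the root mean square deviation of an array from its strain's mean lay between 0.16 and 0.19. RMA brings the medians close together by construction. Array weights estimated with limma lay between 0.78 and 1.36 in BcA86, between 0.856 and 1.6 in CSS12, and between 0.644, for replicate 1, and 1.07 in C57BL/6J. Standard errors (SE) and adjusted p-values come from limma over all 9 arrays, with the Benjamini-Hochberg adjustment over all 41345 probesets, and a probeset is called at an adjusted p under 0.05. The number of arrays limits the precision.

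In BcA86 lung, 43 of the 23521 probesets were called higher and 50 lower, 0.183% and 0.213%. Together the 93 calls are 0.395% of these probesets and stand for 91 genes, because *Plac9a* was called on 3 probesets, 2 of which hold the same values. Higher calls lay between 0.35 and 1.71 on the log2 scale with a median of 0.70, and lower calls between −0.47 and −3.30 with a median of −0.87, against a median of −0.01 over all genes. In all 93 the BcA86 and C57BL/6J arrays did not overlap, which also held for 15.3% of all probesets with 1 symbol. In RNA of mixed lung tissue, fewer cells of a type and less RNA per cell cannot be told apart. Among the 1820 probesets with several symbols and the 16004 with none, a further 19 were called higher and 43 lower and are not described.

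The calls were uneven in how often they held when single arrays were left out. When 1 array at a time was dropped from the 9, 25 of the 91 genes passed in every fit, 7 of them higher and 18 lower, while the other 66 went over 0.05 without at least 1 array, with their highest adjusted p between 0.0547 and 0.186. The count of calls was lowest, at 34, without BcA86 replicate 2. A fit with 1 array fewer also estimates the spread from less data. A lost call therefore need not mean that it rested on the array left out. *Galnt2*, for example, passed 0 of the 9 fits, including those without a CSS12 array, while its difference stayed between 0.34 and 0.36. Where a gene printed with its arrays lost its call in this way, the highest adjusted p and the number of the 9 fits that it passed are given after its adjusted p. The genes that passed throughout include *Mmrn1*, *Ly6a2*, *Chst4*, *Plac9a*, *Nrcam*, *Tubb4a*, *Cbx7*, *Cry1*, *Nnt*, *Rpl3* and *Hspa1a*. Of the 25, 6 went over 0.05 in a fit of the BcA86 and C57BL/6J arrays alone, namely *Npy1r* (0.0689), *Hspa1a* and *Ackr2* (both 0.0664), *Ahnak2* (0.0544), *St6galnac3* (0.0522) and *Erdr1* (0.0507).

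**Figure D1:**
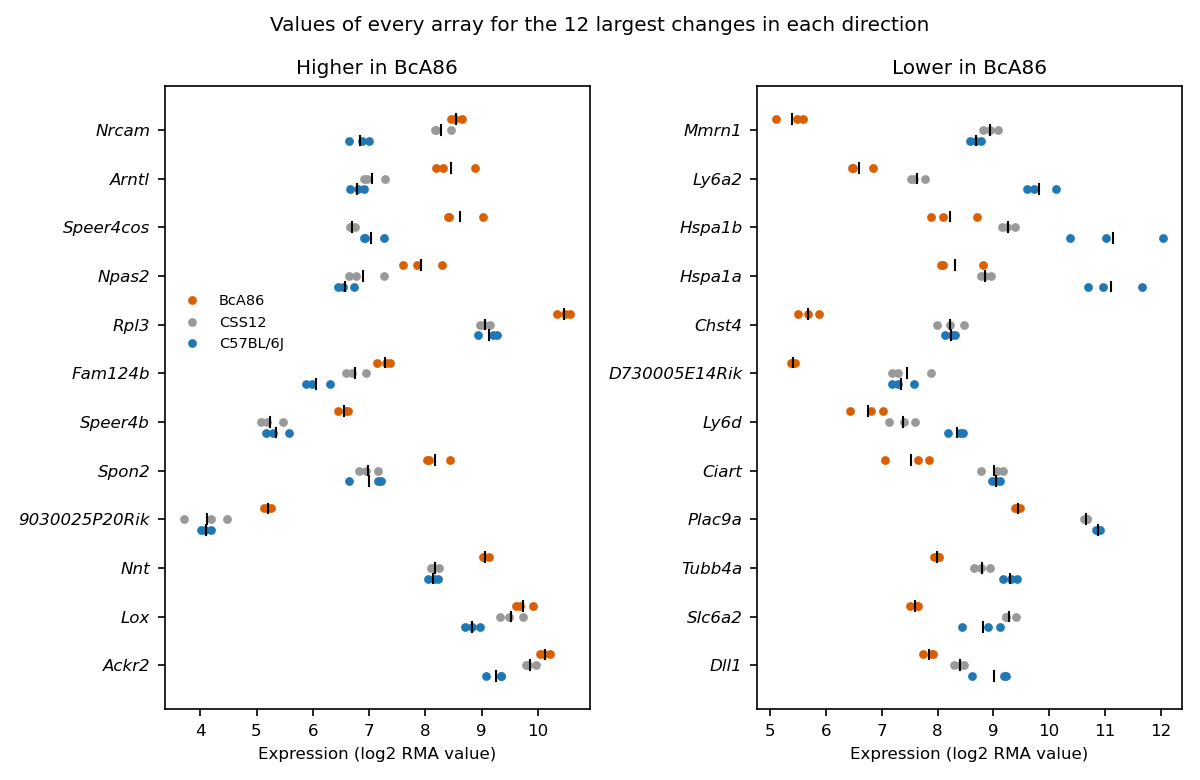
Log2 RMA values of each lung for the 12 genes with the largest increase (left panel) and the 12 with the largest decrease (right panel) in BcA86, taking the brightest probeset of each gene and leaving out immunoglobulin segments and predicted genes. Points are single mice of BcA86 (orange), CSS12 (grey) and C57BL/6J (blue), and black ticks are strain means. The orange and blue points do not overlap in any row, and *Mmrn1* and *Ly6a2* have the widest gaps.

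Calls were spread over 19 chromosomes and were denser over the chromosomes with A/J segments as a set, though not on each of them. All 93 calls have a chromosome, and they are 0.396% of the 23474 probesets that do. Chromosome and order are those of the named gene, and where the probeset itself binds was not tested. In the study's cross, A/J regions of BcA86 on Chromosomes 8, 9, 12, 15, 17 and 18 were genotyped. On these 6 chromosomes, counted whole because the bounds of the segments were not used, 46 of 5819 probesets were called, 0.791%, with 19 higher and 27 lower. On the other chromosomes 47 of 17655 were called, 0.266%, with 24 higher and 23 lower. The densest were Chromosome 15 with 1.13% and Chromosome 12 with 1.11%, followed by Chromosome 8 with 0.911%, Chromosome 18 with 0.725%, Chromosome 17 with 0.612% and Chromosome 9 with 0.45%. Outside the 6, Chromosome 14 reached 0.698%, on 4 genes, Chromosome 1 0.539% and Chromosome 5 0.449%, while Chromosomes 16 and Y had 0 calls. Of the 25 genes that passed with any array left out, 17 were on the 6 chromosomes and 8 elsewhere. The counts on the 6 chromosomes lay between 18, without BcA86 replicate 2, and 37, without C57BL/6J replicate 1.

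**Figure D2:**
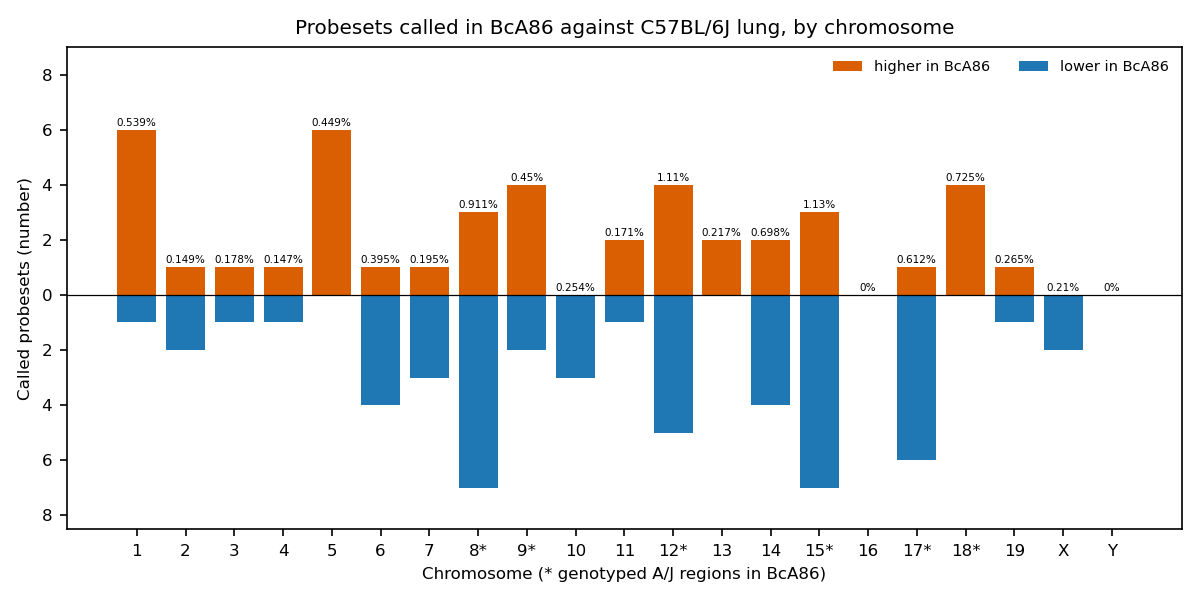
Number of called probesets per chromosome, higher in BcA86 above the line and lower below it, with the percent of the chromosome's probesets called printed above each bar and asterisks on chromosomes with genotyped A/J regions. The asterisked chromosomes hold 46 of the 93 calls.

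Some called genes were neighbours. Of 72 pairs of consecutive called genes on a chromosome, 16 had fewer than 10 measured genes between them, and 6 pairs had none. These counts include near-identical copies such as *Hspa1b* and *Hspa1a*. Whether they exceed those of as many genes drawn from all measured genes was not tested. On Chromosome 15, *D730005E14Rik*, *Apobec3* and *Cbx7* followed each other directly. *Rpl3*, whose called probeset is of uncertain origin, came after 1 further gene. Direct neighbours were also *Hspa1b* and *Hspa1a* on Chromosome 17, *Rnf150* and *Tbc1d9* on Chromosome 8, *Ahnak2* and *Clba1* on Chromosome 12, and *Wdfy1* and *Fam124b* on Chromosome 1. Neighbours did not always move the same way, since *Ahnak2* had −1.25 and *Clba1* had 0.83.

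**Figure D3:**
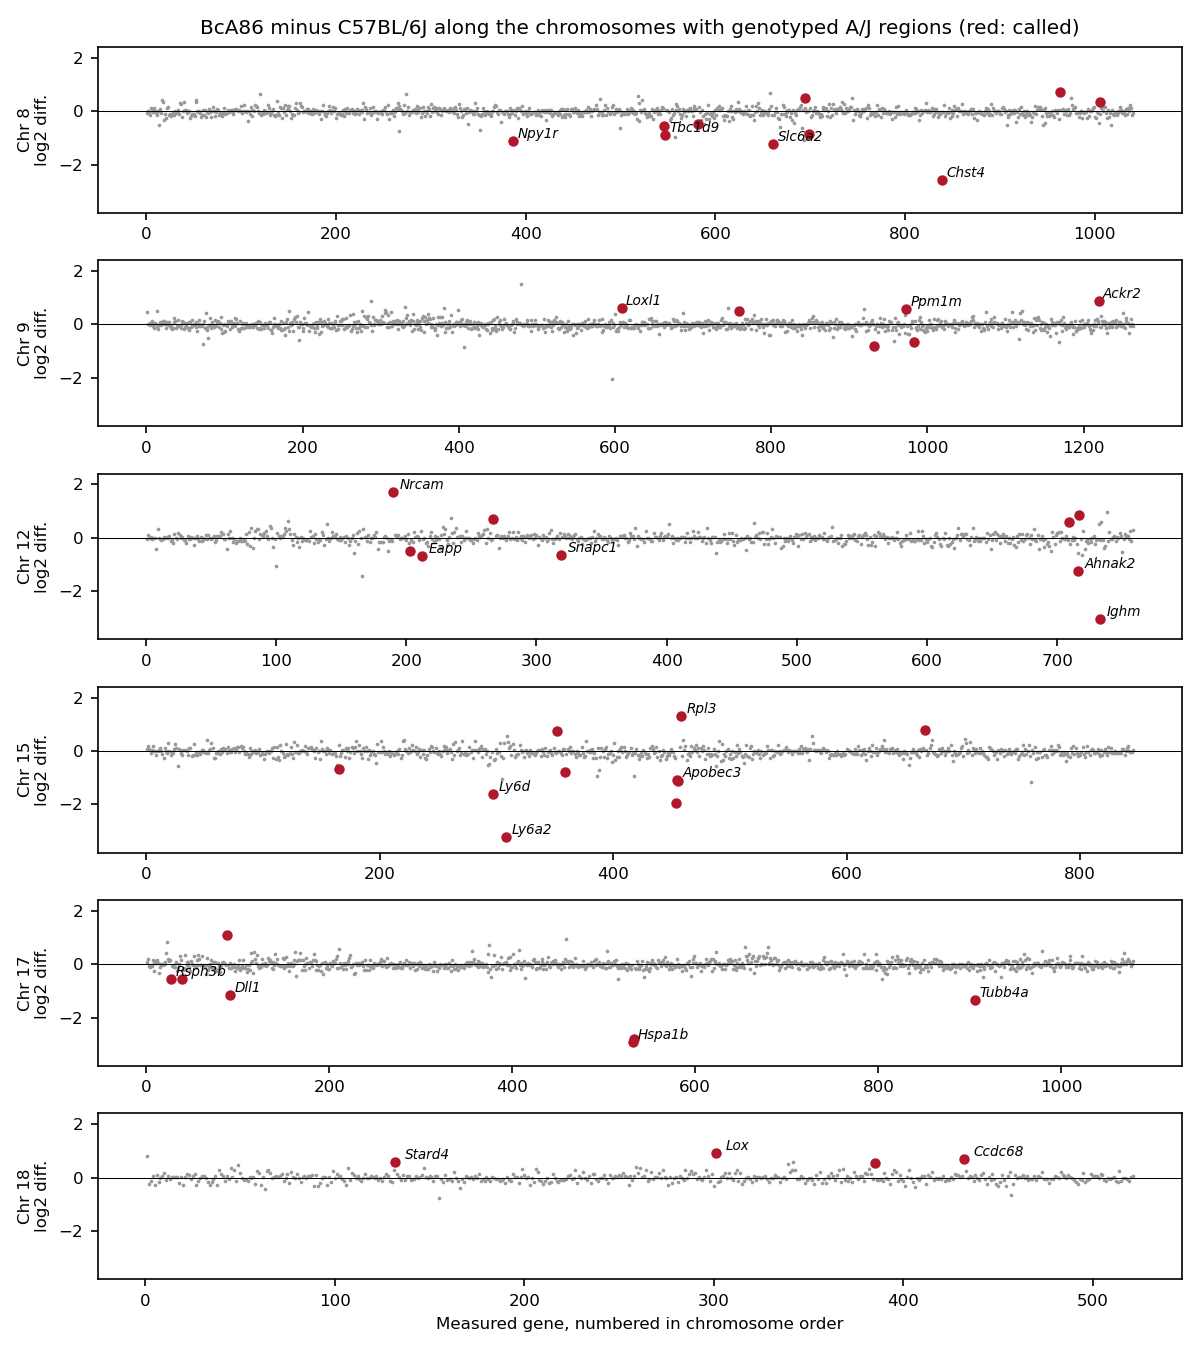
BcA86 minus C57BL/6J on the log2 scale for each measured gene (grey, the brightest probeset of each gene) on the 6 chromosomes with genotyped A/J regions, in chromosome order, with called probesets in red and some of them named. Red points gather in the middle of Chromosome 15, where *Ly6a2* reaches −3.22, and *Hspa1a* and *Hspa1b* sit side by side on Chromosome 17.

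On Chromosome 15, 3 genes were higher and 7 lower. The lowest was *Ly6a2*, of the Ly6 family of small lipid-anchored surface proteins, with values of 6.48, 6.46 and 6.84 in BcA86 against 10.12, 9.72 and 9.61 in C57BL/6J. The difference was −3.22 (SE 0.16, adjusted p = 0.000196), a gap many times the spread within either strain. *Ly6d*, another member of the family, had 6.8, 7.02 and 6.43 in BcA86 against 8.41, 8.45 and 8.19 in C57BL/6J, a difference of −1.60 (SE 0.17, adjusted p = 0.00885). CSS12, which has no A/J Chromosome 15, lay between both strains for these genes, with means of 7.62 for *Ly6a2* and 7.37 for *Ly6d*, and *Ly6a2* was itself called lower in CSS12 than in C57BL/6J, with −2.19 (adjusted p = 0.00767). Ly6 genes are close relatives of each other, and signal shared among them was not separated.

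Further along the chromosome stood the 4 close genes. *D730005E14Rik*, a long noncoding RNA, had 5.38, 5.45 and 5.37 in BcA86 against 7.17, 7.57 and 7.29 in C57BL/6J, a difference of −1.95 (SE 0.18, adjusted p = 0.00614). *Apobec3*, a cytidine deaminase that restricts retroviruses, had 8.80, 8.64 and 8.66 in BcA86 against 9.82, 9.76 and 9.75 in C57BL/6J with a difference of −1.08 (SE 0.10, adjusted p = 0.00649). *Cbx7*, a chromobox protein of Polycomb complexes, had 8.76, 8.76 and 8.80 in BcA86 against 10.03, 9.79 and 9.91 in C57BL/6J with a difference of −1.13 (SE 0.07, adjusted p = 0.000876). All 3 were tight within BcA86. *Rpl3*, a protein of the large ribosomal subunit, went the other way, with 10.58, 10.47 and 10.34 in BcA86 against 9.20, 8.94 and 9.26 in C57BL/6J, higher by 1.33 (SE 0.10, adjusted p = 0.00251). Its other 2 probesets had 0.16 and −0.18 and were not called. Ribosomal protein genes have near-identical copies, so the value for *Rpl3* and its place among the calls of Chromosome 15 are uncertain. All 4 genes were called against CSS12 as well, by −2.05, −1.29, −0.93 and 1.41. The remaining calls were *Scx*, a tendon transcription factor, at 0.76, *Ccdc184* at 0.79, the zinc importer *Slc39a4* at −0.79 and the Tie2 ligand *Angpt1* at −0.66. The other probeset of *Angpt1* was brighter, had 0.22 and was not called. Among the 10 genes, 7 passed with any array left out, and *Slc39a4* had the highest adjusted p, 0.155 without C57BL/6J replicate 2.

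On Chromosome 8, 3 genes were higher and 7 lower. *Chst4*, a sulfotransferase that makes ligands for L-selectin on high endothelial venules, had 5.87, 5.50 and 5.67 in BcA86 against 8.26, 8.14 and 8.32 in C57BL/6J. The difference was −2.56 (SE 0.14, adjusted p = 0.000338), and CSS12 had a mean of 8.22, close to C57BL/6J. *Slc6a2*, the noradrenaline transporter of sympathetic neurons, had 7.5, 7.61 and 7.65 in BcA86 against 8.44, 9.12 and 8.90 in C57BL/6J, a difference of −1.23 (SE 0.16, adjusted p = 0.0217, and up to 0.0956 without BcA86 replicate 2, 3 of 9 fits). *Npy1r*, a receptor of the sympathetic cotransmitter neuropeptide Y, had 6.99, 6.70 and 6.73 in BcA86 against 7.82, 8.15 and 7.81 in C57BL/6J, a difference of −1.12 (SE 0.11, adjusted p = 0.00755). *Tbc1d9*, of the TBC family of Rab GTPase regulators, had a difference of −0.87, and its neighbour *Rnf150*, a ring finger protein, one of −0.55. Higher genes were *Trappc2l*, of the TRAPP vesicle tethering complex, by 0.73, *Ciapin1*, which takes part in cytosolic iron-sulfur cluster assembly, by 0.51 with an uncalled second probeset at 0.27, and *Galnt2*, which starts mucin-type O-glycosylation, by 0.35. *Adgrg3*, an adhesion G protein-coupled receptor, had −0.87 and *Mri1*, of methionine salvage, −0.47. Of these 10 genes, 8 were called against CSS12 too, and *Chst4*, *Npy1r* and *Tbc1d9* passed with any array left out, while *Mri1* had an adjusted p of up to 0.154 without BcA86 replicate 2.

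Chromosome 17 had 1 higher and 6 lower genes. *Tubb4a*, a beta tubulin, had 7.93, 8.0 and 8.02 in BcA86 against 9.31, 9.18 and 9.42 in C57BL/6J, a difference of −1.32 (SE 0.09, adjusted p = 0.00131). *Dll1*, a ligand of Notch receptors, had 7.92, 7.89 and 7.74 in BcA86 against 8.61, 9.23 and 9.19 in C57BL/6J, a difference of −1.16 (SE 0.16, adjusted p = 0.0294, and up to 0.128 without BcA86 replicate 3, 1 of 9 fits), and its other probeset had −0.12. For *Dll1* the C57BL/6J lungs varied more than the BcA86 lungs. The 70-kDa heat shock proteins *Hspa1a* and *Hspa1b* are described with their family. *Rsph3b*, a radial spoke protein of cilia with a close copy in the genome, had −0.54, *Mpc1*, a subunit of the mitochondrial pyruvate carrier, −0.56 with an uncalled second probeset at −0.13, and *9030025P20Rik* 1.10. Apart from *Tubb4a* and *Hspa1a*, each gene went over 0.05 without at least 1 array, *9030025P20Rik* most, with 0.186 without BcA86 replicate 2.

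Chromosome 9 had 4 higher and 2 lower genes. *Ackr2*, a decoy receptor that scavenges inflammatory chemokines, had 10.11, 10.04 and 10.21 in BcA86 against 9.08, 9.34 and 9.34 in C57BL/6J, higher by 0.87 (SE 0.09, adjusted p = 0.00963), and passed with any array left out but not in the fit of both strains alone (0.0664). CSS12 had a mean of 9.85 for it. The phosphatase *Ppm1m* had 0.59, *Loxl1* 0.62, *Rab27a*, a small GTPase of secretory vesicles, 0.48, the solute carrier *Slc35g2* −0.80 and the hydrolase-fold protein *Abhd14b* −0.66. These 5 lost their calls without at least 1 array, and *Slc35g2* had 0.167 without C57BL/6J replicate 2. All 4 calls on Chromosome 18 were higher. They were *Lox* at 0.91, *Ccdc68* at 0.70, *Stard4*, a cholesterol transfer protein, at 0.59, and *Piezo2*, a mechanically gated ion channel, at 0.54. *Ccdc68* alone of the 4 passed with any array left out, its other probeset had 0.22, and *Stard4* had 0.159 without BcA86 replicate 2.

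Chromosome 12 is the A/J chromosome that BcA86 carries in part and CSS12 carries whole, and the values of both strains are set side by side with the shared C57BL/6J arrays. Of 808 probesets, 9 were called in BcA86, 4 higher and 5 lower, and 13 in CSS12. *Nrcam*, a cell adhesion molecule of neurons, had 8.46, 8.53 and 8.65 in BcA86 and 8.18, 8.46 and 8.19 in CSS12, against 6.87, 7.0 and 6.65 in C57BL/6J. It was higher by 1.71 in BcA86 (SE 0.11, adjusted p = 0.00121) and by 1.43 in CSS12 (adjusted p = 0.00767). *Eapp*, a phosphoprotein that binds E2F factors, had 7.41, 7.28 and 7.30 in BcA86 and 7.35, 7.35 and 7.44 in CSS12, against 7.89, 8.0 and 8.14 in C57BL/6J. The BcA86 difference was −0.68 (SE 0.08, adjusted p = 0.0135, and up to 0.0793 without BcA86 replicate 2, 6 of 9 fits). *Snapc1*, part of the complex that drives small nuclear RNA genes, had 7.41, 7.37 and 7.51 in BcA86 and 7.36, 7.26 and 7.43 in CSS12, against 7.98, 8.19 and 8.08 in C57BL/6J. Its difference in BcA86 was −0.65 (SE 0.08, adjusted p = 0.0167, and up to 0.088 without BcA86 replicate 2, 5 of 9 fits). For all 3 genes both A/J-bearing strains lay on 1 side of C57BL/6J without overlap on these arrays. The paper lists coding variants between A/J and C57BL/6J in *Eapp* and *Snapc1*. Whether these lie under the probes was not tested. The paper reports that its quantitative RT-PCR bore out the difference in *Snapc1* but not that in *Eapp*. It also selected *Mettl21d* from these arrays, by Cyber-T and a fold threshold, as higher in BcA86 and CSS12. Its RT-PCR bore out that difference as well, and *Mettl21d* is not among the 9 calls here.

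The other Chromosome 12 calls in BcA86 were *Clba1*, a clathrin-binding protein, at 0.83, *5830428M24Rik* at 0.70, the formin *Inf2* at 0.59, *Dtd2*, a deacylase of mischarged transfer RNA, at −0.48, *Ahnak2* at −1.25 and 1 probeset of *Ighm*, the immunoglobulin mu heavy chain, at −3.04. That *Ighm* probeset had 3.36, 3.08 and 3.06 in BcA86 against 6.68, 5.48 and 6.45 in C57BL/6J (SE 0.27, adjusted p = 0.00542), with a mean of 3.02 in CSS12. The other 6 *Ighm* probesets were not called and had differences between −0.40 and 0.23, so the probesets of this gene disagree. *Ahnak2* likewise had a second, brighter probeset at −0.57, which was not called. None of the 9 was called between BcA86 and CSS12. The differences between these strains were 0.05 to 0.48 in size, and the 95% interval was −0.23 to 0.14 for *Eapp*, −0.10 to 0.26 for *Snapc1*, 0.01 to 0.54 for *Nrcam*, −0.36 to −0.08 for *Inf2* and −0.76 to −0.19 for *Ahnak2*. Only *Nrcam*, *Ahnak2* and the *Ighm* probeset passed with any array left out, and *Dtd2* had 0.13 without BcA86 replicate 2.

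Away from the 6 chromosomes the widest difference was in *Mmrn1*, which encodes multimerin, an adhesive protein of platelets and endothelium, on Chromosome 6. It had 5.58, 5.11 and 5.48 in BcA86 against 8.69, 8.78 and 8.59 in C57BL/6J, with a mean of 8.94 in CSS12. The difference was −3.30 (SE 0.13, adjusted p = 4.07e-05), which is within its SE of that of *Ly6a2*. The BcA86 values of *Mmrn1*, like those of *Chst4* and *D730005E14Rik*, lay below the array medians. No detection call comes with the values, and sequence variants under the probes, from A/J or otherwise, were not tested. The sizes of these decreases are therefore uncertain. Whether BcA86 differs in sequence from C57BL/6J off the 6 chromosomes was not tested either. *Nnt* on Chromosome 13, the proton-pumping transhydrogenase of mitochondria in which C57BL/6J is known to carry a loss-of-function deletion, had 9.13, 9.04 and 9.02 in BcA86 against 8.04, 8.22 and 8.15 in C57BL/6J. It was higher by 0.93 (SE 0.07, adjusted p = 0.0024), with means of 9.06 in BcA86, 8.16 in CSS12 and 8.14 in C57BL/6J. *Plac9a*, a small secreted protein on Chromosome 14 with a close copy in the genome, had 9.48, 9.39 and 9.43 in BcA86 against 10.87, 10.84 and 10.90 in C57BL/6J, a difference of −1.44 (SE 0.05, adjusted p = 4.07e-05). *Mmrn1*, *Nnt* and *Plac9a* were called against CSS12 as well and passed with any array left out.

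Several other genes off the 6 chromosomes had calls. On Chromosome 5 all 6 were higher. *Speer4cos* at 1.58, *Gm17019* at 1.3 and *Speer4b* at 1.22 bear names of a multigene family of near-identical copies or a predicted gene beside it. The copy behind the signal of these 3 is uncertain. The means of *Gm17019*, 4.88 in BcA86 and 3.58 in C57BL/6J, lay below the array medians. *Spon2*, a matrix protein of the innate immune response, had 8.06, 8.03 and 8.44 in BcA86 against 7.22, 7.16 and 6.64 in C57BL/6J, higher by 1.17 (SE 0.18, adjusted p = 0.0489, and up to 0.146 without BcA86 replicate 3, 0 of 9 fits). On Chromosome 1 there were 6 higher genes, among them *Fam124b* at 1.22, *Wdfy1* at 0.74, the interleukin 18 receptor *Il18r1* at 0.64 and the basement membrane collagen *Col4a3* at 0.43, and 1 lower, the chemokine scavenger *Ackr3*, at −0.74. Each call on Chromosomes 1 and 5 was lost without at least 1 array, and the highest adjusted p was 0.175, for *Ifi213* without BcA86 replicate 2. *Ssh3*, a phosphatase that acts on cofilin, on Chromosome 19, had 7.25, 7.30 and 7.46 in BcA86 against 8.45, 8.39 and 8.32 in C57BL/6J, a difference of −1.05 (SE 0.07, adjusted p = 0.00131). *Erdr1* at −0.76 and *Mid1* at −1.07, near each other on the X chromosome, each have a second probeset that was not called, with −0.31 and −0.79. For *Erdr1* the uncalled probeset was the brighter.

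Further calls off the 6 chromosomes, other than those of genes described by function later, are given by their differences. *Mup-ps12*, of the major urinary protein genes with many near-identical relatives, was higher at 0.81. Its means, 3.53 in BcA86 and 2.72 in C57BL/6J, lay below the array medians. Also higher were *Ccnjl*, a cyclin J-like gene, at 0.75, the sialyltransferase *St6galnac3* at 0.70, *Fam189a2* at 0.61, the neurotrophin receptor *Ntrk2* at 0.53 and *Fjx1* at 0.54. The fucosyltransferase *Fut11* had 0.52, and its brighter probeset had 0.12 and was not called. The interferon-inducible *Ifi213* had 0.50 and the glycoprotein hormone *Stc1* 0.51. *Hip1*, which acts in clathrin-coated vesicles, and the tetraspanin *Tspan11* both had 0.44. Those that were lower were *Mthfd1l*, of mitochondrial one-carbon metabolism, at −0.99, *Nat8f3* at −0.88, the tetraspanin *Tspan4* at −0.86, the splicing factor *Tra2a* at −0.64, *Gkn3* at −0.63, the myeloid receptor *Cd300c* at −0.62, *Glt8d2* at −0.56, the urokinase receptor *Plaur* at −0.53, the ferric reductase *Cybrd1* at −0.53 and *Rnaseh2b*, a subunit of ribonuclease H2, at −0.47. Of these, *St6galnac3* and *Nat8f3* passed with any array left out.

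The remaining results are arranged by function, with 1 probeset per gene, the brightest, and lists of genes for cell types and processes. Over all 22180 genes 0.388% were called, and an unadjusted p under 0.05 was met by 9.95%, 4.41% higher and 5.55% lower. Of 29 lists, 6 had at least 1 call.

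The circadian clock runs on a loop in which the activators ARNTL (also called BMAL1) and CLOCK or NPAS2 drive genes through E-box elements, and the products of the Per, Cry and Ciart genes repress them. Nuclear receptors of the REV-ERB and ROR classes act on *Arntl* through a second element, the RORE, and PAR-bZIP proteins such as DBP act through D-boxes. In lung this clock runs in many cell types. In BcA86, 2 activators were higher and 3 repressors lower, 5 calls among 19 clock genes measured. *Arntl* had 8.19, 8.32 and 8.88 in BcA86 against 6.66, 6.91 and 6.8 in C57BL/6J, higher by 1.67 (SE 0.18, adjusted p = 0.0107, and up to 0.0561 without C57BL/6J replicate 3, 8 of 9 fits). *Npas2* had 7.84, 7.61 and 8.29 in BcA86 against 6.54, 6.74 and 6.46 in C57BL/6J, higher by 1.34 (SE 0.21, adjusted p = 0.0479, and up to 0.161 without C57BL/6J replicate 3, 1 of 9 fits). For both, all BcA86 lungs were above all C57BL/6J lungs, and BcA86 replicate 3 was the highest.

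Among the repressors, *Ciart* had 7.65, 7.85 and 7.05 in BcA86 against 8.97, 9.05 and 9.12 in C57BL/6J, a difference of −1.53 (SE 0.20, adjusted p = 0.0223, and up to 0.0975 without C57BL/6J replicate 2, 4 of 9 fits). *Per3* had 8.53, 8.38 and 7.95 in BcA86 against 9.26, 9.20 and 9.40 in C57BL/6J, a difference of −1.0 (SE 0.15, adjusted p = 0.045, and up to 0.149 without C57BL/6J replicate 3, 0 of 9 fits). *Cry1* had 6.75, 6.79 and 6.70 in BcA86 against 7.60, 7.69 and 7.54 in C57BL/6J, a difference of −0.86 (SE 0.06, adjusted p = 0.00212), and was the 1 clock gene that passed with any array left out. For *Ciart* and *Per3*, BcA86 replicate 3 was again the farthest from C57BL/6J. The cell cycle kinase *Wee1*, a known target of the clock outside the list, had 8.10, 7.89 and 7.99 in BcA86 against 8.66, 8.85 and 9.08 in C57BL/6J, a difference of −0.87 (SE 0.12, adjusted p = 0.0352, and up to 0.143 without BcA86 replicate 2, 1 of 9 fits).

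Members that were not called had *Dbp* at −1.05 (adjusted p = 0.123), *Per1* at −0.81 (0.0829), *Bhlhe41* at −0.77 (0.117), *Hlf* at −0.75 (0.119), *Nr1d2* at −0.65 (0.126), *Clock* at 0.46 (0.0762) and *Nr1d1* at −0.08 (0.792). Without adjustment 3 of the 19 were higher and 11 lower at p under 0.05, and the median was −0.30, against −0.01 over all genes. Of the 5 calls, *Arntl*, *Ciart* and *Cry1* were also called against CSS12, and CSS12 had differences from C57BL/6J of 0.26 for *Arntl*, −0.04 for *Ciart* and −0.38 for *Cry1*. The called genes lie on Chromosomes 1, 3, 4, 7 and 10, none of which has a genotyped A/J region. As the hour of collection is not given in the sources used here, whether it differed between the strains was not tested.

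**Figure D4:**
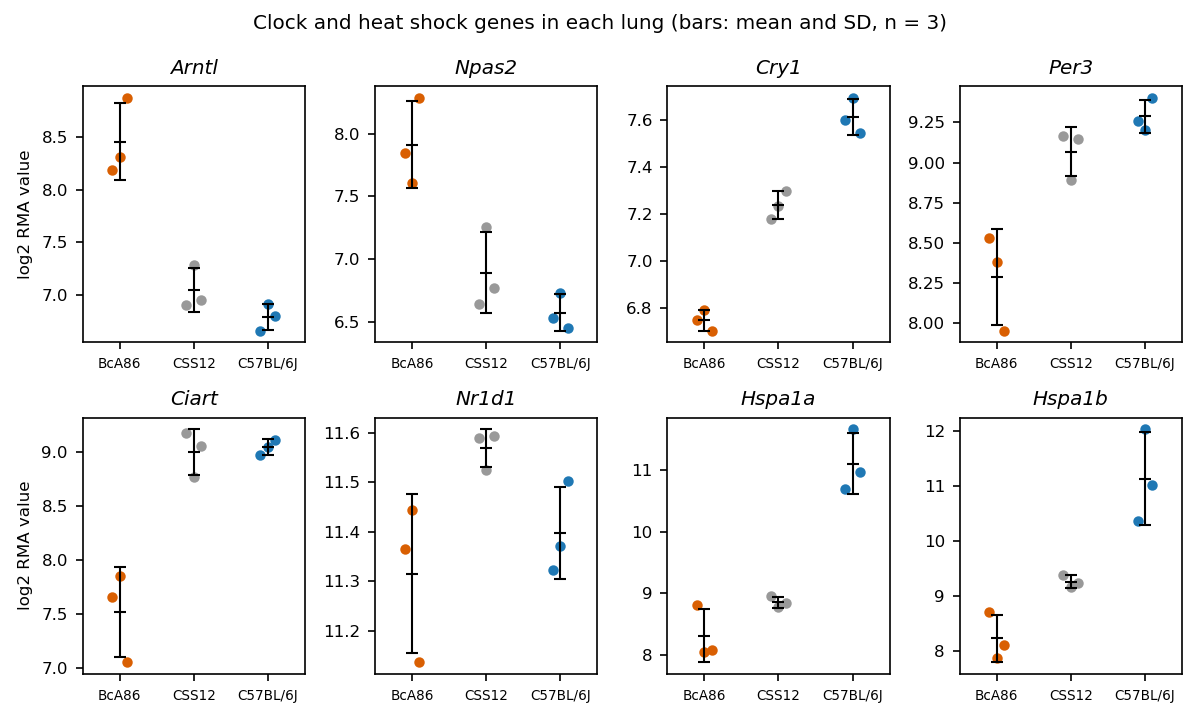
Log2 RMA values of each lung for 6 clock genes and the 2 inducible Hsp70 genes, in BcA86 (orange), CSS12 (grey) and C57BL/6J (blue), with mean and SD (n = 3) in black and a separate vertical scale in each panel. *Arntl* and *Npas2* are higher and *Cry1*, *Per3* and *Ciart* lower in BcA86 than in C57BL/6J, while the BcA86 and C57BL/6J values of *Nr1d1* overlap.

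Promoters of called clock genes, some higher and some lower in BcA86, are printed because clock genes are textbook carriers of the clock elements. The windows are from RefSeq on GRCm38.p6 and cover 250 bases before to 50 after a start, 300 in all. Capitals mark the E-box CACGTG, the D-box TTATGTAA and the RORE core TAGGTCA, searched on both strands. Of 32851 mouse promoter windows, 7.15% hold such an E-box, 0.938% such a D-box and 2.61% the RORE core. *Ciart* (chr3:95882179-95882478, minus strand) held 3 E-boxes, *Cry1* (chr10:85185005-85185304, minus strand) 1 E-box, *Per3* (chr4:151044616-151044915, minus strand) 2 D-boxes, and the second of 2 start sites of *Arntl* (chr7:113207261-113207560, plus strand) 1 RORE core.
Ciart: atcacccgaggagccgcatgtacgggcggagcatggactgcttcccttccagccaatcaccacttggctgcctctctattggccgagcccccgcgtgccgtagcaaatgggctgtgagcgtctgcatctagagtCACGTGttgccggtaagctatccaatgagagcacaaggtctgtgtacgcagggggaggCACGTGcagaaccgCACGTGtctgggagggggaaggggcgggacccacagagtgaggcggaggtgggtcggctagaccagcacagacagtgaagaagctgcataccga
Cry1: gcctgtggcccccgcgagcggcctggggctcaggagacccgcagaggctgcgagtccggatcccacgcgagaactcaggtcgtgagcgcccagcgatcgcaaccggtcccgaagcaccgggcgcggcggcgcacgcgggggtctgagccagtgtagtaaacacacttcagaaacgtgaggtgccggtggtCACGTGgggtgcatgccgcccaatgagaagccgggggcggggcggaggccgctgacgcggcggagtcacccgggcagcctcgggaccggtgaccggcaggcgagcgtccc
Per3: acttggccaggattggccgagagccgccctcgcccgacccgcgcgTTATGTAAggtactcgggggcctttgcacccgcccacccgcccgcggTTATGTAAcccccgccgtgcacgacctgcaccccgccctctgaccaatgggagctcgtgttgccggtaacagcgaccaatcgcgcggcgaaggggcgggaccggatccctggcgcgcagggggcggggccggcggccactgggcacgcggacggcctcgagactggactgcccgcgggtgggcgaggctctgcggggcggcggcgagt
Arntl: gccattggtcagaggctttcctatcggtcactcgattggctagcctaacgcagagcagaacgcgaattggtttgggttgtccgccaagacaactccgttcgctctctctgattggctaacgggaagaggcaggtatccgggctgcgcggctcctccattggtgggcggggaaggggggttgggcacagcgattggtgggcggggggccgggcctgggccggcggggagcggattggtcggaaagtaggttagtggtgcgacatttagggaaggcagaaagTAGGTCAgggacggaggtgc
The window of *Npas2* held none of the 3. Across the list, 18 genes had a window, and 5 held an E-box, 1 a D-box and 2 the RORE core in at least 1 window. The percentages for all mouse windows count single windows, so they are not the same measure. A match of letters is a description of the window and does not show binding.

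Heat shock proteins are chaperones, and the inducible Hsp70 genes *Hspa1a* and *Hspa1b*, which encode nearly the same protein, are known to rise steeply with heat, handling and tissue stress through the factor HSF1. Both were lower in BcA86. *Hspa1a* had 8.81, 8.05 and 8.09 in BcA86 against 10.69, 11.66 and 10.96 in C57BL/6J, a difference of −2.78 (SE 0.27, adjusted p = 0.00755), and passed with any array left out but not in the fit of both strains alone (0.0664). *Hspa1b* had 8.71, 7.87 and 8.10 in BcA86 against 10.37, 12.04 and 11.01 in C57BL/6J, a difference of −2.91 (SE 0.39, adjusted p = 0.0261, and up to 0.118 without BcA86 replicate 3, 2 of 9 fits). These genes varied widely among mice, and in C57BL/6J replicate 2 was the highest for both. CSS12, which has no A/J Chromosome 17, had means of 8.86 and 9.26, closer to BcA86 than to C57BL/6J. *Hspa1a* was also called lower in CSS12 than in C57BL/6J, with −2.24 (adjusted p = 0.0264), and BcA86 minus CSS12 was −0.54 (adjusted p = 0.506). For *Hspa1b* CSS12 minus C57BL/6J was −1.88 (adjusted p = 0.149). The genes are near-identical copies, so their signals cannot be told apart.

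Of 25 heat shock and chaperone genes, these 2 were called lower and 0 higher, and at an unadjusted p under 0.05 17 were lower and 0 higher. All 25 differences were below 0, with a median of −0.34, and the median in CSS12 against the same C57BL/6J arrays was −0.27. Among those not called were the Hsp110 gene *Hsph1* at −1.37 (adjusted p = 0.37), the Hsp40 gene *Dnajb1* at −0.97 (0.187), *Hspb1* at −0.50 (0.222) and *Hsp90aa1* at −0.33 (0.216). Immediate early genes, which are transcribed within minutes of a stimulus, had a median of −0.27 over 36 members, and of −0.23 in CSS12. The 1 call among them was the nuclear receptor *Nr4a2*, with 7.76, 7.63 and 7.61 in BcA86 against 8.37, 8.59 and 8.25 in C57BL/6J, a difference of −0.74 (SE 0.10, adjusted p = 0.0255, and up to 0.118 without BcA86 replicate 3, 1 of 9 fits). At an unadjusted p under 0.05, 16 were lower and 1 higher. *Nr4a3* had −1.50 (adjusted p = 0.0766) and *Fos* −0.57 (0.693). Handling of the mice before collection was not tested as a part of these differences.

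The promoter windows of the Hsp70 genes are alike. That of *Hspa1a* (chr17:34972107-34972406, minus strand) matched that of *Hspa1b* (chr17:34959189-34959488, minus strand) at 296 of 300 bases, and each held 1 copy of the heat shock element core GAANNTTC, in capitals, which 7.86% of mouse windows hold.
Hspa1a: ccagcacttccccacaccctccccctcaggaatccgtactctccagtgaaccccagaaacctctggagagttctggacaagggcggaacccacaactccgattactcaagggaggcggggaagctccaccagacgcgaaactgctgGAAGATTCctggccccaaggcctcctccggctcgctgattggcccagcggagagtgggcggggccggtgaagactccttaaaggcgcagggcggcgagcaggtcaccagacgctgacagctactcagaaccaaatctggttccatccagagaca
Among 23 listed heat shock genes with a window, 11 held this core in at least 1 window. The percentage for all mouse windows counts single windows, so it is not the same measure.

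Fibroblasts and the matrix they lay down give the lung its tensile strength, and lysyl oxidases crosslink its collagen and elastin. Among 33 genes of this list, 4 were called higher and 0 lower, and without adjustment 12 were higher and 1 lower, with a median of 0.22. The mean level of the list per lung was 9.67 to 9.82 in BcA86 and 9.27 to 9.60 in C57BL/6J, and the part of fibroblast number in these differences was not tested. The lysyl oxidase *Lox* had 9.68, 9.62 and 9.91 in BcA86 against 8.82, 8.97 and 8.69 in C57BL/6J, higher by 0.91 (SE 0.13, adjusted p = 0.0324, and up to 0.117 without BcA86 replicate 3, 2 of 9 fits). Its relative *Loxl1* had 11.26, 11.29 and 11.40 in BcA86 against 10.77, 10.77 and 10.53 in C57BL/6J, higher by 0.62 (SE 0.10, adjusted p = 0.0479, and up to 0.157 without BcA86 replicate 3, 0 of 9 fits). *Pdgfra*, the platelet-derived growth factor receptor of fibroblasts, had 11.20, 11.19 and 11.23 in BcA86 against 10.52, 10.67 and 10.72 in C57BL/6J, higher by 0.57 (SE 0.08, adjusted p = 0.0381, and up to 0.145 without BcA86 replicate 3, 1 of 9 fits). *Mfap4*, of elastic microfibrils, had 10.11, 10.09 and 10.18 in BcA86 against 9.64, 9.75 and 9.66 in C57BL/6J, higher by 0.44 (SE 0.06, adjusted p = 0.0384, and up to 0.145 without BcA86 replicate 3, 0 of 9 fits). For each of the 4 the strains did not overlap. *Eln*, elastin, had 1.55 (adjusted p = 0.0908) and *Tnc*, tenascin C, 0.82 (0.321), and fibrillar collagens *Col1a1* and *Col3a1* had 0.33 (0.596) and 0.29 (0.596). None of the 33 was called against CSS12, whose own median against C57BL/6J was 0.23.

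Among 22 endothelial genes *Mmrn1* was the 1 call, with a list median of 0.10. Without adjustment 4 of the 22 were higher and 3 lower. Among 30 genes of mitochondrial electron transport and NADPH, *Nnt* was the 1 call, with a median of −0.02 and 1 higher and 3 lower without adjustment. The other 23 lists had 0 calls by limma among 513 genes, with medians between −0.17 and 0.20. At an unadjusted p under 0.05, 40 of the 513 were higher and 29 lower, and Cyber-T, the test of the study's methods, called 23 higher and 17 lower, 7.8% of the 513. Cyber-T called 1.82% of all 22180 genes, 0.915% higher and 0.906% lower. The most one-sided were proliferation and mitosis, with 8 of 36 higher and 0 lower without adjustment (median 0.20), mesothelial cells, with 7 of 15 lower and 0 higher (median −0.17), and fasting and PPAR targets, with 6 of 23 higher and 0 lower (median 0.12). *Ube2c*, of mitotic exit, had 0.65 (adjusted p = 0.244), the mesothelial mucin *Muc16* −0.51 (0.125) and the lipase inhibitor *Angptl4* 0.94 (0.128). In glucocorticoid receptor targets 8 of 28 were higher and 3 lower, led by the zinc finger factor *Zbtb16* at 1.53 (adjusted p = 0.0662). Xenobiotic metabolism had 1 of 43 higher and 6 lower, with the dioxin-responsive *Cyp1a1* at −2.04 (0.0722). In CSS12 against the same C57BL/6J arrays, the medians were 0.38 for proliferation, −0.07 for mesothelial cells and 0.15 for fasting targets. They were 0.44 for glucocorticoid receptor targets, against 0.06 in BcA86, and −0.06 for xenobiotic metabolism. *Zbtb16* and *Angptl4* were called higher in CSS12, by 2.51 and 1.40.

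Cell types of the airway, the alveolus, muscle, fat and blood gave no call by limma among 226 genes, while Cyber-T called 5 higher and 6 lower, 4.87%, among them the secretory gene *Agr3*. The 18 alveolar markers, which check the labelled tissue, averaged 11.77 to 11.80 per lung in BcA86 and 11.75 to 11.81 in C57BL/6J. Medians of the difference were −0.0034 for alveolar epithelium, 0.04 for airway secretory and −0.07 for ciliated cells, 0.11 for smooth muscle and pericytes, 0.05 for cardiac muscle of lung veins, −0.03 for adipose, 0.07 for erythroid cells, 0.02 for B and plasma cells, 0.0037 for T and NK cells, −0.10 for macrophages and monocytes and 0.10 for neutrophils. *Agr3* had the largest difference of the airway lists, −1.43 (SE 0.28, adjusted p = 0.117). Immune programmes had medians of 0.04 for the type I interferon response, where *Rsad2* had 0.63 (adjusted p = 0.0554), 0.02 for interferon gamma GTPases, 0.07 for MHC genes and 0.0008 for type 2 inflammation. Muscarinic and airway contraction signalling, the pathway through which methacholine acts, had 0 calls among 32 genes by limma and 0 by Cyber-T. Without adjustment, 1 was higher and 1 lower at p under 0.05. Its median was 0.03, and the muscarinic receptor *Chrm1* had the largest difference, −0.27 (SE 0.12, adjusted p = 0.462). Reference genes had a median of −0.06 and sex-linked genes of 0.08, where *Sry* on the Y chromosome had 0.18 (adjusted p = 0.595). *Usp9y*, also on that chromosome, had 0.14 (adjusted p = 0.725). Its means, 3.65 in BcA86, 3.67 in CSS12 and 3.51 in C57BL/6J, lay below the array medians. Over the 37 probesets of the Y chromosome the median was 0.34, with 0 calls.

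**Figure D5:**
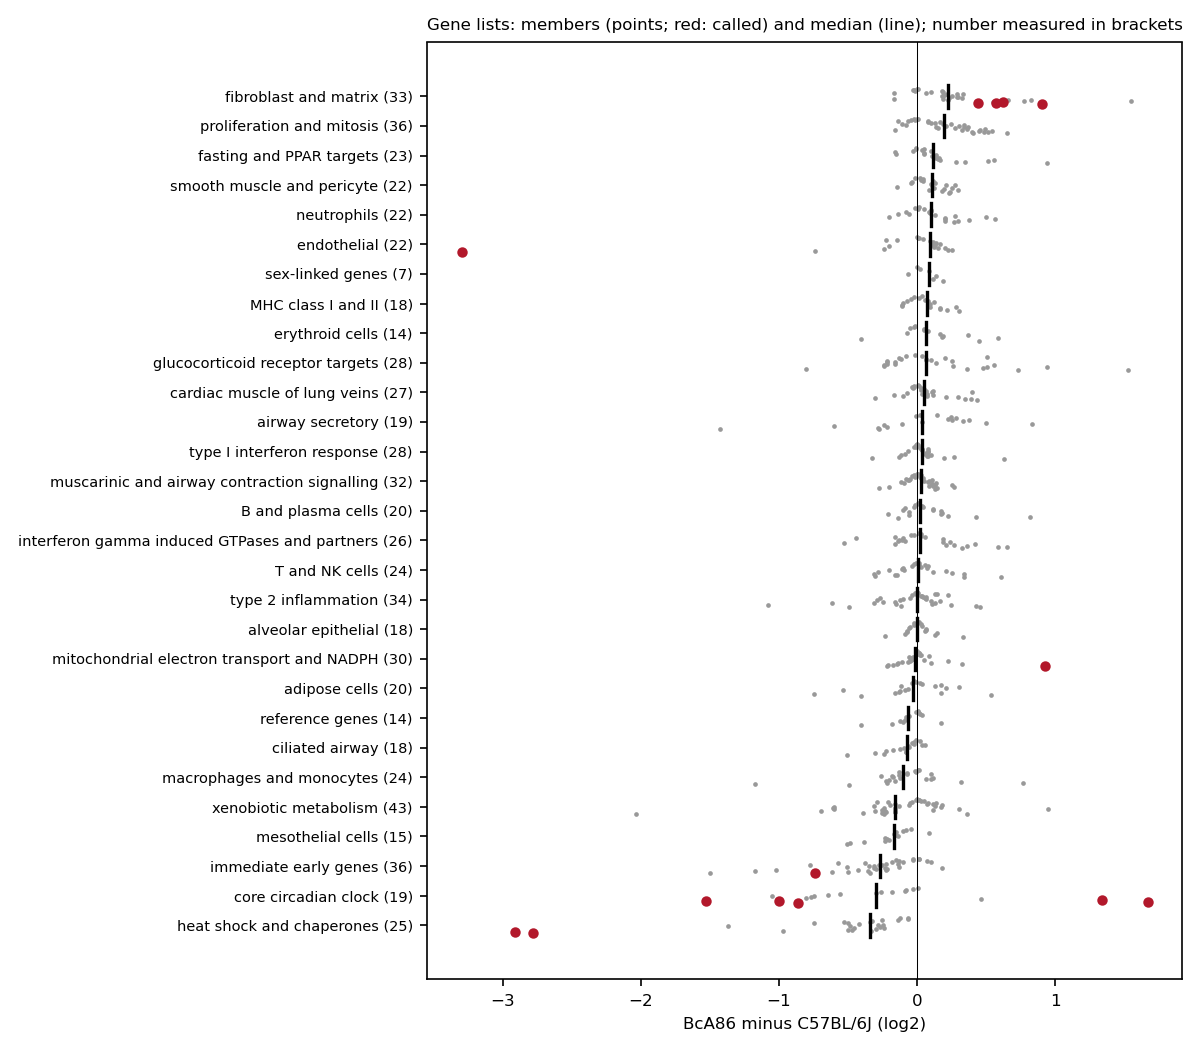
BcA86 minus C57BL/6J on the log2 scale for the members of each gene list (points, called members in red) with the list's median as a black line and the number of measured members in brackets, ordered by median. The heat shock, clock and immediate early lists have the lowest medians, and the fibroblast and matrix list, with 4 red points, the highest.

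Of the 93 calls against C57BL/6J, 39 were also called between BcA86 and CSS12, a comparison that uses the same BcA86 arrays and in which 0.595% of all probesets with 1 symbol were called. They were 21 of 46 on the 6 chromosomes, with 8 of 10 on Chromosome 8, 6 of 10 on Chromosome 15 and 0 of 9 on Chromosome 12, and 18 of 47 elsewhere. The count was 16 without BcA86 replicate 2 and 30 without C57BL/6J replicate 1.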

How the data were processed

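Lung RNA of 9 mice was hybridized to Affymetrix Gene 2.0 ST arrays, 1 per mouse. The deposited values are log2 expression values that the authors made by RMA in FlexArray, with no further normalization or filter here. The FlexArray version is not given in the sources used here. Gene names are the platform's, for probesets with 1 symbol, and chromosomes are RefSeq's, matched by Entrez identifier for 23328, by symbol for 149 and not at all for 44.

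BcA86, CSS12 and C57BL/6J were fitted together in R 4.3.3 with limma 3.58.1 (empirical Bayes, no block, Benjamini-Hochberg over all 41345 probesets). The code was tested on simulated data. Members and lists were chosen with earlier results of these data known. Named in full are up to 12 higher and 12 lower genes by fold among those called without overlap, up to 4 per chromosome with 4 calls or more, and per list up to 4 called members or the 2 with the largest change. Other genes were chosen after their values were seen, namely *Apobec3*, *Cbx7*, *Snapc1*, *Ssh3*, *Cry1*, 1 *Ighm* probeset and the uncalled list members beyond that rule. Where a gene has several probesets, lists use the one with the highest mean.

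Alternatives were Cyber-T (window 101, prior weight 10), trended and robust variances, BcA86 and C57BL/6J alone, the replicate number as a block, dimmer probesets left out, median centring, array weights, adjustment over probesets with 1 symbol, and each array left out. Same-numbered mice share only a number. Airway and genotype data were not analysed here.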

Additional observations from a re-analysis of the deposited data

How the results depend on the processing

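Of the 93 calls against C57BL/6J, 46 lay on the 6 chromosomes with genotyped A/J regions and 39 were also called between BcA86 and CSS12, and these counts depended on the model of the spread. Cyber-T gave 441, 160 and 198, with 225 of the 441 higher and 216 lower. Leaving out the dimmer probesets gave 200, 94 and 72, which include 87 of the 93. Trended and robust variances gave 157 and 73, with 86 of the 157 higher and 71 lower. The 6 arrays of BcA86 and C57BL/6J alone gave 26, 17 and 20, with 9 of the 26 higher and 17 lower. The replicate number as a block gave 30, 18 and 17, with 12 of the 30 higher and 18 lower. Of the 25 genes that passed with any array left out, 4 went over 0.05 with this block, *Hspa1a* (0.0533), *Ackr2* and *Erdr1* (both 0.0641) and *Nat8f3* (0.0647). The deviations of same-numbered mice from their strain means correlated at 0.08, −0.11 and 0.15, so the numbers were not taken to pair the mice. With 1 array left out the counts lay between 34 and 73, 18 and 37, and 16 and 30. Median centring gave 95 calls, 50 higher and 45 lower in place of 43 and 50. The other alternatives gave counts within 1.5 times of these. The cause of these shifts was not tested.

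No called gene changed direction under these alternatives. Among list members with no call, *Bpifa1* lay between −0.49, without C57BL/6J replicate 3, and 1.61 with 1 array left out, *Nppa* between −0.58, without C57BL/6J replicate 3, and 1.00, with −0.40 without BcA86 replicate 1, and *Ltf* between −0.17, without BcA86 replicate 1, and 1.13. With 3 mice a strain, small differences are below what these arrays can call.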
